A study of Mus musculus with 35 samples.

Results

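The GABAergic lineage genes described here are 8 genes that follow a brain cell from ventral progenitor to inhibitory neuron, *Gad1*, *Gad2*, *Slc32a1*, *Dlx1*, *Dlx2*, *Dlx5*, *Lhx6* and *Sst*. They were chosen by name, and all 8 were found among the 53465 genes of the bulk table. From mouse brains at E14.5, FACS had separated 4 populations (neural cells, microglia, mural cells and endothelial cells), and each gave 3 bulk RNA-seq libraries, 12 in all, titled by population (N for neural, Mu for mural, Ec for endothelial, Mi for microglia) and by a number that recurs in each population, as in Mu-343. They held 17638358 to 98414914 reads on genes. Single cells of the same populations were sorted into wells of 3 wild-type plates, and cells of *Mof* knockout brains filled another 3 plates. The knockout cells carry *Mof* Knockout as their only characteristic in the labels, which give neither an allele nor a Cre line, a strain or the sort gate of a well. The bulk libraries carry no genotype label, but the paper states that their 3 brains were wild type. Neural cells were those negative for all surface markers of the other populations (PECAM1, CD102, PDGFRβ, CD45 and CD41, and in the bulk sort also CD11b), so that the gate holds neurons of every kind together with progenitors.

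Inhibitory neurons use the transmitter GABA. *Gad1* and *Gad2* encode the enzymes that make GABA from glutamate, and *Slc32a1* encodes the transporter that loads it into synaptic vesicles. In the embryonic forebrain such neurons are born in the ganglionic eminences, below the cortex, where the homeodomain factors DLX1, DLX2 and DLX5 are active. LHX6 is a LIM homeodomain factor of cells that leave the medial eminence, and many of them later make the peptide somatostatin, the product of *Sst*. In the diencephalon, midbrain and hindbrain, GABAergic neurons are specified by other factors, among them GATA2, GATA3 and TAL1. Excitatory neurons of the cortex come from dorsal progenitors and use NEUROD and TBR1 factors instead.

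Of the 8 genes, 6 lie on chromosome 2 of GRCm38. *Dlx1* (ENSMUSG00000041911, chr2:71528113-71533981, plus strand) and *Dlx2* (ENSMUSG00000023391, chr2:71543408-71546754, minus strand) face each other across 9426 bases. *Gad1* (ENSMUSG00000070880, chr2:70553072-70602014, plus strand) ends 926098 bases before *Dlx1*. The others on that chromosome are *Gad2* (ENSMUSG00000026787, chr2:22622205-22693874, plus strand), *Lhx6* (ENSMUSG00000026890, chr2:36081953-36105408, minus strand) and *Slc32a1* (ENSMUSG00000037771, chr2:158610767-158615748, plus strand). *Dlx5* (ENSMUSG00000029755) is at chr6:6877805-6882085 and *Sst* (ENSMUSG00000004366) at chr16:23889573-23890958, both on the minus strand. The antisense transcript *Dlx1as* shares 335 exon bases, or 6.21%, with *Dlx1*, and *Gad1os* overlaps the body of *Gad1* but shares 0 exon bases with it. Whether the counting used strand is not given in the sources used here, so reads from the shared part of *Dlx1* cannot be told apart. *Gad1-ps* (chr10:99444044-99445819) is a processed pseudogene of *Gad1*, and reads may be split between the pair.

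The sequences before the transcription starts of 3 members are shown because these genes stand at the extremes of the measurements below. *Slc32a1* was the member listed at 0 in most libraries outside the neural population, *Lhx6* the one with the largest difference between knockout and wild-type plates, and *Sst* the one with the smallest difference between populations. They come from RefSeq, build GRCm38.p6, in which 7 of the 8 members were matched, with 9 starts in all. The *Slc32a1* line covers the 250 bases at chr2:158610508-158610757 (plus strand), and the *Lhx6* line the 250 bases at chr2:36105409-36105658 (minus strand). For *Sst* only the 30 bases from 60 to 31 before the start are given (chr16:23890875-23890904, minus strand). They lie inside the span given for *Sst* above, which comes from GENCODE and starts upstream of the RefSeq start. Capitals mark CAGCTG, a form of the E-box, in *Lhx6* and TGACGTCA, the cAMP response element, in *Sst*.

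Slc32a1: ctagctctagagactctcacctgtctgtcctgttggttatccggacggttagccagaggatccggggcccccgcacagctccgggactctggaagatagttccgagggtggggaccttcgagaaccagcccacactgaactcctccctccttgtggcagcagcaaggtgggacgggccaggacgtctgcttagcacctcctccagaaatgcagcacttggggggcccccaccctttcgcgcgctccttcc

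Lhx6: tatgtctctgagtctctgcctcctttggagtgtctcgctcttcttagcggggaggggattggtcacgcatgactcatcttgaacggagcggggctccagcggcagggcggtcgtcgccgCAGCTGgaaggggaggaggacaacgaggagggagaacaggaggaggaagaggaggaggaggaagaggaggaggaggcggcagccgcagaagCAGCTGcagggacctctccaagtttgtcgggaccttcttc

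Sst: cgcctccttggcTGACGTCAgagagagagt

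For the 3 motifs, both strands of the 250 bases were searched. CAGCTG, which reads alike on both strands, stood in 2 places before the first *Lhx6* start, at bases 131 to 126 and 40 to 35 before it, and is held by 13.0% of 32851 RefSeq promoters. TGACGTCA, also the same on both strands, stood in *Sst* at bases 48 to 41 before the start, against 1.55% of all promoters. TAATT, which reads AATTA on the other strand and is a core bound by homeodomain proteins, was found in 1 of the 9 member promoters, the third *Lhx6* start, and in 8223 of the 32851 promoters (25%). The 9 member promoters had between 46% and 68% GC, and the median of all promoters was 52.4%.

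In the bulk libraries every member was highest in the 3 neural libraries. Values are normalized counts, the reads on a gene divided by 1 factor per library, and the 3 libraries of a population are given in the order of their numbers. *Gad1* measured 4099.7, 4375 and 4232 in neural cells. In the others it measured 92.2, 1.14 and 0.939 (mural), 493, 1.42 and 3.02 (endothelial) and 0, 1.19 and 3.78 (microglia). *Gad2*, the second enzyme gene, gave 3297, 3571 and 3211 in neural cells, against 172, 866 and 44.1 (mural), 0, 2.84 and 31.7 (endothelial) and 7.13, 149 and 70.5 (microglia). The neural libraries lay above the other 9 for both enzymes, and a single library stood out among the others, Ec-340 for *Gad1* and Mu-343 for *Gad2*. *Slc32a1*, the vesicular transporter, gave 864, 870.0 and 907 in neural cells and 1.51 in the endothelial library Ec-346, and was 0 in the other 8 libraries. That library held 1 read of the gene, against 5650 reads in the neural libraries together.

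The homeodomain genes repeated the order. *Dlx1* measured 7350.1, 7518 and 8243 in neural cells, against 66.4, 2.28 and 87.3 (mural), 24.8, 227 and 34.7 (endothelial) and 51.1, 217 and 49.1 (microglia). *Dlx2* measured 3217, 3406 and 3777 in neural cells, against 60.3, 93.6 and 18.8 (mural), 216, 1.42 and 15.1 (endothelial) and 33.3, 72.3 and 2.52 (microglia). *Dlx5* measured 936, 1004 and 1019 in neural cells, against 47.2, 81.0 and 1.88 (mural), 3.54, 119 and 0 (endothelial) and 5.94, 45.1 and 8.81 (microglia). The neural values of the DLX genes did not overlap with the others, while mural, endothelial and microglial libraries overlapped with each other for each of the 3 genes.

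*Lhx6* measured 1773, 1961 and 1962 in neural cells, against 2.18, 0 and 98.6 (mural), 37.2, 326 and 95.02 (endothelial) and 0, 3.56 and 0 (microglia). The 3 endothelial libraries all lay above the 3 microglial ones for this gene. *Sst* measured 459, 477 and 485 in neural cells, against 191, 37.7 and 41.3 (mural), 67.3, 53.9 and 0 (endothelial) and 0, 16.6 and 15.1 (microglia). The mural library Mu-340 reached 40.2% of the neural mean, the highest share of any member in any library outside the neural population.

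**Figure D1:**
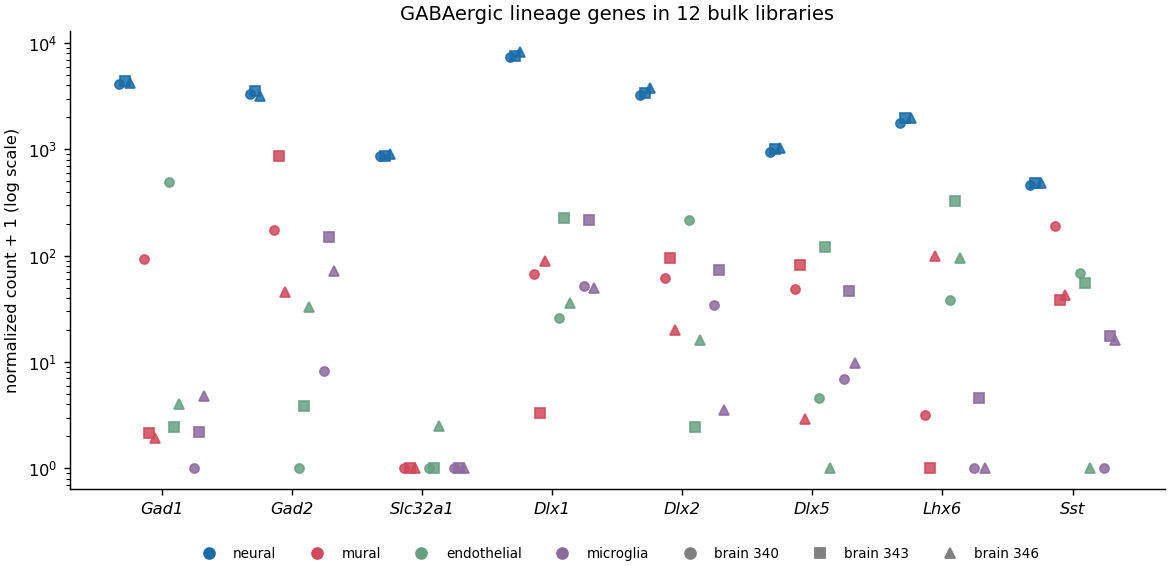
Normalized count + 1 (log scale) of the 8 genes in the 12 bulk libraries, 1 point per library, with colour for the population and shape for the number. For every gene the 3 neural points lie above the other 9. The nearest approach is *Sst*, with 459 in the lowest neural library and 191 in the highest other one.

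Across the 3 neural libraries the values varied little. The coefficient of variation of the members ran from 2.63% to 8.21%, with a median of 5.04%, against a median of 3.79% for 8153 genes of that level. Scaled to exon length, the neural level per kilobase was highest for *Dlx1*, at 1428 ± 87.9 (SD, n = 3), followed by *Dlx2* at 1214 ± 99.7. *Sst*, with the shortest transcript, came next at 657 ± 18.02, then *Gad2* at 572 ± 32.0, *Gad1* at 554 ± 18.01, *Dlx5* at 436 ± 19.6, *Lhx6* at 395 ± 22.6 and *Slc32a1* at 315 ± 8.26. On this per-kilobase scale *Gad2* and *Gad1* were within 1 SD of each other. Fewer cells of a type and less RNA per cell cannot be told apart in such bulk samples.

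As a share of the neural mean, the highest value outside the neural population was 0.171% for *Slc32a1*, 2.95% for *Dlx1*, 6.24% for *Dlx2*, 11.6% for *Gad1*, 12.1% for *Dlx5*, 17.2% for *Lhx6* and 25.8% for *Gad2*. Which library gave that value differed between genes. Summed over the 8 members, the other libraries held from 0.424% (Mi-340) to 4.70% (Mu-343) of the neural sum. For a list of 8 pan-neuronal genes the range was 2.23% to 5.30%, and for 8 genes of the cortical excitatory lineage 0.814% to 5.65%. Summed over each list, the markers of a sorted population were highest in that population, although the neural marker *Fabp7* was called lower in neural than in mural cells. The summed neural markers, 10 genes, ran from 176777 to 193405 in neural libraries and from 7221 to 72454 in the others, the highest of which were mural. Their part in the values of the members outside neural cells was not tested.

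**Figure D2:**
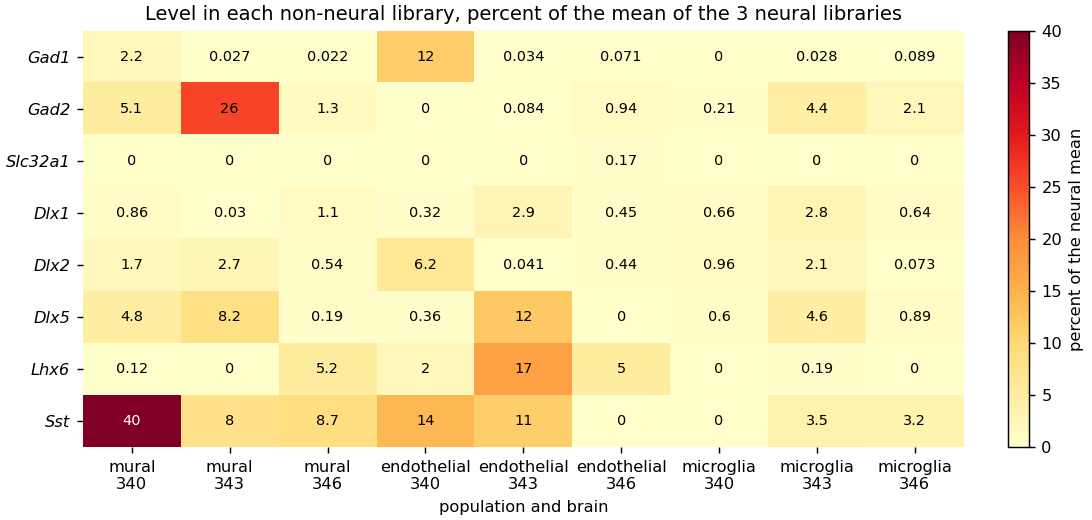
Level of each gene in each of the 9 mural, endothelial and microglial libraries, as a percent of the mean of the 3 neural libraries. The darkest cells are *Sst* in Mu-340 (40.2%) and *Gad2* in Mu-343 (25.8%), and no library is high for all 8 genes.

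Neural cells were compared with the mean of the other 3 populations by limma on log2(normalized count + 1), two-sided and adjusted by Benjamini and Hochberg over 19765 genes with a mean of at least 10. Of these genes 32.9% were called higher in neural cells, and 13.8% by over 10-fold. All 8 members were called higher, by a median log2 difference of 7.11, against 0.09 over all genes tested. *Slc32a1* differed by 9.64 (SE 0.41, adjusted p = 1.74e-08, limma) and *Gad1* by 9.36 (SE 1.60, adjusted p = 0.000435, limma), an order that turned with 10 added in place of 1 (6.45 and 7.56). *Lhx6* differed by 7.48 (SE 1.21), *Dlx1* by 7.24 (SE 0.99), *Dlx2* by 6.98 (SE 1.23), *Gad2* by 6.59 (SE 1.18) and *Dlx5* by 6.15 (SE 1.38), each with an adjusted p of 0.00254 or less in limma. *Sst* had the smallest difference, 4.64 (SE 1.31, adjusted p = 0.00940, limma). On this scale the difference of a gene at 0 depends on the 1 that is added. From its reads, *Slc32a1* was 7605-fold higher in neural libraries than over the 9 others (exact Poisson 95% interval 1365 to 300394), at least 1241-fold higher than in mural libraries and at least 727-fold higher than in microglia, taking 3 reads per group as the floor. These intervals and floors cover counting error only.

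*Slc32a1* passed the minimum of 10 only through the neural libraries, so it had to differ, while the other 7 members reach a mean of 10 in the 9 other libraries alone. In the exact permutation test of 3 libraries against 9, two-sided, all 8 members gave p = 0.00909, the smallest the 220 splits allow. That is the case for each gene whose lowest neural library lies above the 9 others, or 25.2% of the genes tested. These p-values measure the spread between libraries. The neural libraries were made with another kit (TruSeq) than the others (SMART-Seq v4 and Nextera XT), so kit and neural population cannot be told apart.

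Pairs of populations were taken from the same limma fit. Against endothelial cells and against microglia all 8 members were called higher in neural cells, where 30.6% and 30.4% of all genes were. Against mural cells 7 of 8 were called, with 28.7% of all genes, and *Sst* was not (log2 difference 2.80, SE 1.60, adjusted p = 0.163, limma). Among the other populations 2 differences passed. *Gad2* was higher in mural than in endothelial cells by 5.24 (SE 1.44, adjusted p = 0.0196, limma), where 13.5% of genes were, and *Lhx6* was higher in endothelial cells than in microglia by 6.003 (SE 1.48, adjusted p = 0.00925, limma), where 15.3% were. Between mural cells and microglia 0 of 8 were called, with 17.9% of all genes called higher and 20.1% lower. For the other members no difference among mural cells, endothelial cells and microglia passed the test.

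Genes that work with the members followed in part. Of 5 other genes of GABA uptake and breakdown 4 were tested and all 4 rose in neural cells (median log2 difference 5.96). They include *Abat*, which encodes the enzyme that breaks GABA down, at 2415 ± 51.8 normalized counts (SD, n = 3) in neural cells, *Aldh5a1*, the next enzyme of that path, at 943 ± 19.4, and *Slc6a11*, a transporter gene of astrocytes, at 329 ± 29.04. *Slc6a13* did not reach the minimum and averaged 1.62 in neural and 27.1 in mural cells. All 10 transcription factor genes of ganglionic eminence progenitors rose (median 6.18), among them *Sp9* at 1779 ± 169 and *Nkx2-1*, which marks the medial eminence, at 1534 ± 95.6.

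Of 10 genes of medial eminence interneurons 8 rose and 1, *Maf*, fell (median 4.43). The highest in neural cells were *Satb1* (3858 ± 87.7), *Sox6* (3080.4 ± 258), *Erbb4* (1334 ± 161) and *Ackr3* (783 ± 25.6). Of 9 genes of the lateral and caudal eminences 7 rose, *Foxp1* fell and *Ebf1* did not pass (median 3.17). *Meis2* led with 10504 ± 266, and *Nr2f2* reached 4007 ± 268 in neural but 9458 ± 1882 in mural cells. Among the peptides and calcium-binding proteins that later divide interneurons into classes, 5 of 6 tested genes rose (*Calb1*, *Calb2*, *Npy*, *Tac1* and *Cck*), *Penk* did not pass, and *Vip* and *Pvalb* were below the minimum. Of 6 factors of caudal GABAergic neurons 5 rose (median 4.46) and *Gata2* did not pass, and against endothelial cells alone *Gata2*, *Gata3* and *Tal1* did not pass. *Gata2* and *Tal1* are also genes of the blood lineage. Of 6 erythroid markers 3 rose against the other populations, and their summed level ran from 9021 to 11826 in neural, 13054 to 34038 in endothelial, 242 to 598 in mural and 1667 to 2075 in microglial libraries, with 0 genes at 0 in every library of a population. Their part in the values of these factors was not tested. *Tal1* measured 1073 ± 13.6 in neural cells and more in endothelial cells (1144 ± 262) and microglia (1803 ± 358). For comparison, 8 of 8 excitatory lineage genes (median 6.48) and 8 of 8 pan-neuronal genes (median 5.15) rose. The lists were fixed by name, and nothing particular to one of them is read from these counts.

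In the wild-type single cells, 709 of 1056 listed wells held over 1500 transcripts and were kept, 123 from the neural gate, 210 from the mural, 225 from the endothelial and 128 from the microglia gate, with 23 outside these gates. Each member was found in a minority of neural gate cells. *Dlx1* was found most often, in 34 of 123 cells (27.6%, exact Clopper-Pearson 95% interval 19.96 to 36.4). *Gad2* followed with 27 cells (22.0%, 14.99 to 30.3), then *Dlx2* with 20 (16.3%, 10.2 to 24.0) and *Gad1* with 19 (15.4%, 9.56 to 23.1). *Slc32a1* was found in 14 cells (11.4%, 6.36 to 18.4), *Lhx6* in 11 (8.94%, 4.55 to 15.4), *Dlx5* in 10 (8.13%, 3.97 to 14.4) and *Sst* in 3 (2.44%, 0.506 to 6.96). Neighbours in this order have intervals that overlap. The intervals cover counting error only, and a gene not found in a cell may still have been expressed there.

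A cell with a member often held several transcripts of it. The highest numbers in 1 cell were 37 for *Dlx1*, 21 for *Dlx2*, 17 each for *Gad2* and *Lhx6* and 14 for *Sst*. *Slc32a1* never exceeded 3. All 21 *Sst* transcripts of the neural gate came from 3 cells of plate 1.

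Any of the 8 members was found in 55 of 123 neural gate cells (44.7%, 35.7 to 53.9). The plates gave 51.8%, 43.4% and 21.4%, the last from 14 cells with a median of 4113 transcripts, against 7915 and 7680.0 on the other plates. With every cell thinned to 1500 transcripts the share was 26.8%. At least 2 members were found in 31 cells (25.2%, 17.8 to 33.8), or 16.3% after thinning, and the highest number in 1 cell was 7.

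Outside the neural gate all 8 members were found in a smaller share of cells. In 563 cells of the other gates *Gad1* was found in 4 cells (0.710%), *Slc32a1* in 2, *Dlx1* in 10 (1.78%), *Dlx2* in 5, *Dlx5* in 2, *Lhx6* in 6 (1.07%) and *Sst* in 1. *Gad2* was found most often there, in 34 (6.04%), of which 29 held a single transcript and 4 held another member. Its share was 5.24% in the mural gate (2.64 to 9.18), 8.0% in the endothelial gate (4.81 to 12.3) and 3.91% in the microglia gate (1.28 to 8.88), and the neural share of 22.0% lay above all 3 intervals. The median depth was 7717 transcripts per neural cell, 6885 per mural cell, 6408 per endothelial cell and 10761 per microglia. At least 2 members were found in 6 of 563 cells, 4 of the mural and 2 of the endothelial gate. In wild-type cells of clusters that were not named neural-like, from any gate, the number was 3 of 551.

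**Figure D3:**
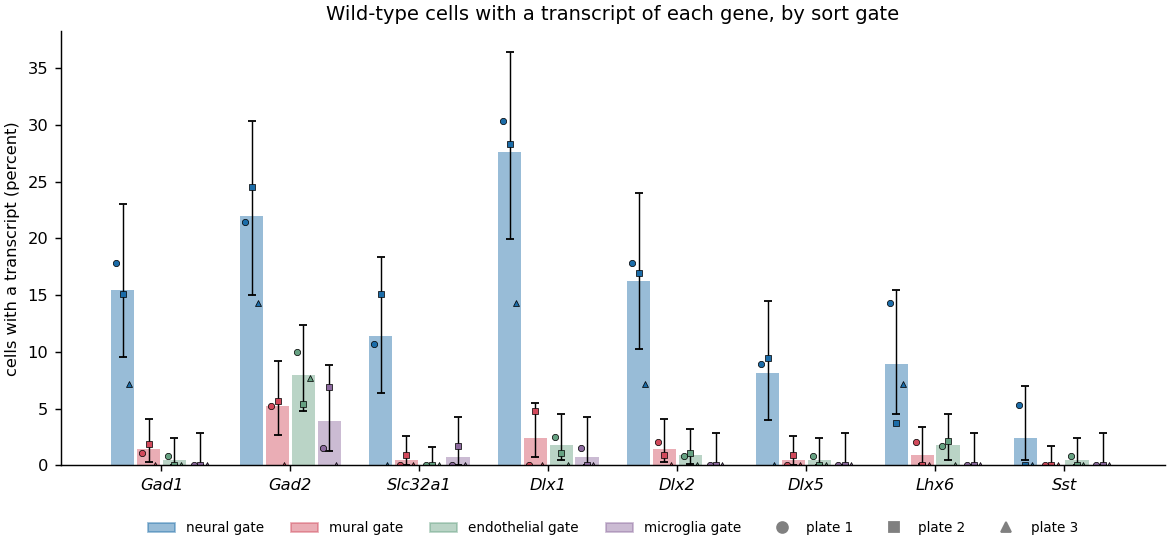
Percent of wild-type cells with at least 1 transcript of each gene, by sort gate. Bars pool the 3 plates, lines are exact 95% intervals and points are single plates. *Gad2* is the member with the highest bars outside the neural gate (8.0% in the endothelial gate), and for each gene the neural bar is the highest.

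Summed by plate and gate, 5 members passed the filter on low counts, and edgeR's quasi-likelihood test over 9281 genes called all 5 higher in the neural gate than in the mean of the other gates, as it did 22.5% of genes. Each of the 5 passed the filter only through the neural gate, with at most 2 of the 9 other sums over its minimum of 18.46 CPM where 3 are needed, so they had to differ and their number is no result. On cells thinned to 1500 transcripts only *Dlx1* still passed the filter, and it was called. *Dlx2* differed by a log2 of 6.47 (SE 0.43, adjusted p = 3.54e-19, edgeR), *Dlx1* by 5.79 (SE 0.35), *Gad1* by 5.59 (SE 0.52), *Lhx6* by 5.56 (SE 0.57) and *Gad2* by 3.59 (SE 0.32), with an adjusted p of 3.59e-12 or less in edgeR. *Gad2* had the smallest of these differences. *Slc32a1*, *Dlx5* and *Sst* had too few transcripts to be tested. The long noncoding gene *Dlx6os1*, beside *Dlx5*, had 16, 28 and 6 transcripts in the neural gate of plates 1, 2 and 3, then 2 and 3 in the mural gate of plates 1 and 2, and 0 in the other sums.

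Members were found together in the same cells more often than their single shares would give. Expected numbers assume that 2 genes fall independently on the cells of a plate. Over the 28 pairs, 183 cells with both genes were counted where 67.5 were expected, and after thinning 58 where 16.2 were expected. Of the pairs 24 shared a cell, and all 24 lay above expectation. *Dlx1* and *Dlx2* shared 18 cells (5.73 expected), so that 90% of the *Dlx2* cells held *Dlx1*. *Gad1* and *Gad2* shared 14 (4.25 expected), *Gad2* and *Slc32a1* 12 (3.25 expected) and *Gad1* and *Slc32a1* 11 (2.28 expected), the last being the highest ratio, 4.83. *Gad2* and *Dlx1* shared 12 (7.61 expected), the ratio of 1.58 being the lowest among pairs that shared more than 1 cell, while *Gad1* and *Dlx5* shared 6 (1.65 expected) and *Slc32a1* and *Dlx2* 8 (2.43 expected). The median ratio over the 28 pairs was 3.06. *Lhx6* shared 8 cells with *Dlx1* (3.14 expected). *Sst* shared 1 cell each with *Gad1*, *Gad2* and *Slc32a1* and 0 with the DLX genes and *Lhx6*, where fewer than 1 was expected for each. Cells that share a library share its depth and its free RNA. The median depth was 7919 transcripts in cells with at least 2 members and 7537 in cells with none.

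How often a member came alone differed. Every one of the 14 *Slc32a1* cells and of the 10 *Dlx5* cells held another member, as did 19 of 20 *Dlx2* cells, 10 of 11 *Lhx6* cells and 17 of 19 *Gad1* cells. The figure was 21 of 27 for *Gad2*, 22 of 34 for *Dlx1* and 1 of 3 for *Sst*.

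The 31 neural gate cells with at least 2 members rarely held genes of the excitatory lineage. At least 2 of its 8 genes were found in 1 of these 31 cells (3.23%, 0.0816 to 16.7) and in 56 of the other 92 (60.9%, 50.1 to 70.9), and after thinning in 0 of 20 and 44 of 103. Pan-neuronal genes were found in both, in 31 of 31 and 80 of 92 cells. Progenitor genes were found in 24 of 31 and 62 of 92, but after thinning in 6 of 20 and 40 of 103, the reverse order of shares. *Neurod6*, a gene of young cortical excitatory neurons, was found in 1 of 31 and 42 of 92, and *Tbr1* in 2 and 36. Genes of the ventral lineage went the other way. *Sp9* was found in 11 of 31 and 3 of 92 cells, *Isl1*, a gene of striatal neurons, in 9 and 2, and *Lhx8*, a gene of cholinergic and other medial eminence neurons, in 6 and 0. The caudal factor *Lhx1* was found in 9 and 4. Cells of a plate are not replicates, and no test was made on these shares.

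Among the 10 genes most like the summed members across the 123 neural gate cells were *Nrxn3* (Pearson r = 0.64), which encodes a presynaptic adhesion protein, *Dlx6os1* (0.62), *Sp9* (0.51), *Adarb2* (0.46), *Dclk2* (0.43), *Arl4d* (0.43), *Isl1* (0.43) and *Sox2ot* (0.42), out of 8764 genes found in at least 10 cells. On thinned cells r was 0.54 for *Dlx6os1*, 0.29 for *Nrxn3* and 0.08 for *Dclk2*, and between 0.28 and 0.46 for the others named here. At the other end stood *Nfib* (-0.41), *Nfia* (-0.40), *Neurod2* (-0.38), *Nfix* (-0.38) and *Neurod6* (-0.35), the nuclear factor I genes and NEUROD genes of the dorsal lineage. Correlations of this kind are across cells that share libraries and depth, and are given as a description.

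**Figure D4:**
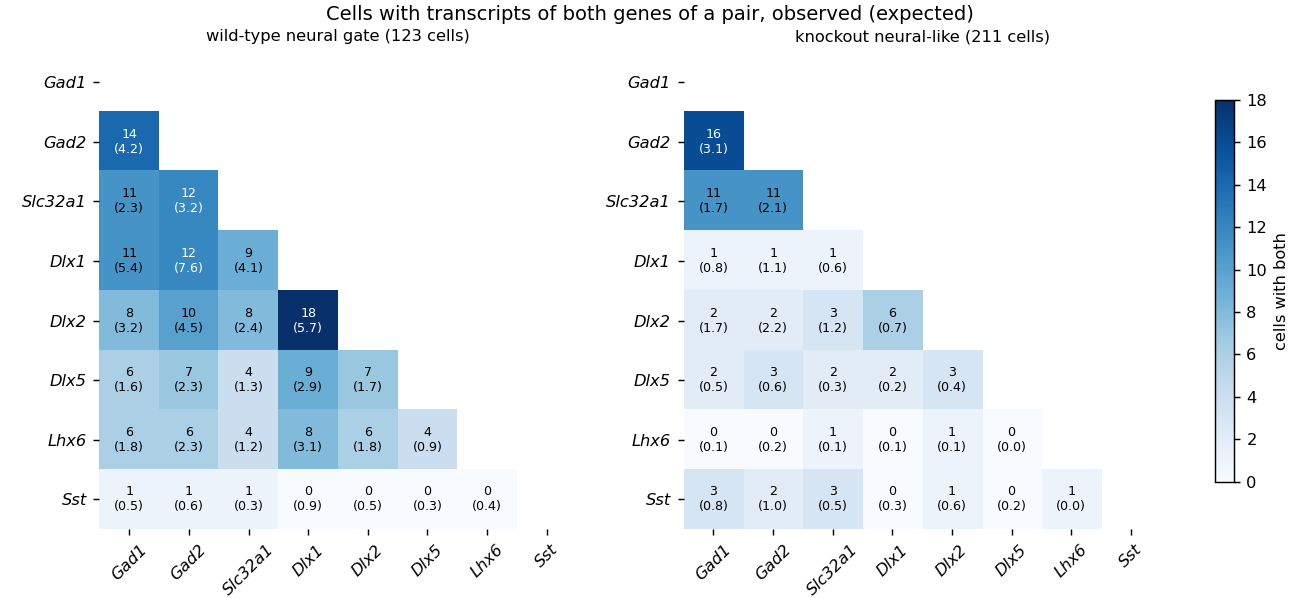
Number of cells with transcripts of both genes of a pair, with the expected number in parentheses, for the 123 wild-type neural gate cells and the 211 knockout neural-like cells. In wild type the darkest cell is *Dlx1* with *Dlx2* (18 cells). In knockout the 3 pairs among *Gad1*, *Gad2* and *Slc32a1* hold 16, 11 and 11 cells, and their pairs with *Dlx1* hold 1 cell each.

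For the knockout plates the sort gate of a well is not known. Cells of both genotypes were therefore clustered together without the members, and clusters were named by markers. This gave 158 wild-type neural-like cells (82, 60 and 16 on plates 1 to 3) and 211 knockout ones (61, 112 and 38 on plates 4 to 6). The knockout plates also held other classes in unequal numbers, 272 mural-like cells on plate 4, 79 microglia-like cells on plate 5 and 266 endothelial-like cells on plate 6. On plate 4 the neural-like cells were 35 of cluster 15, with the radial glia genes *Fabp7* and *Slc1a3* among its 10 leading genes, and 21 of cluster 17, led by *Rspo1* and *Wnt8b*, while clusters 6, 7 and 8, which held most wild-type neural gate cells, held 5 of its cells. The median depth was 7669 transcripts per wild-type and 7928 per knockout neural-like cell. Genotype, plate and batch cannot be told apart. *Kat8*, which encodes MOF, measured 24.7, 28.2 and 10.2 CPM (transcripts of a gene scaled to one total for every plate) on the wild-type plates and 5.06, 7.65 and 26.1 on the knockout plates (log2 difference -1.13, SE 0.60, adjusted p = 0.907, edgeR). The method reads the 3' end, which may lie outside the deleted part, so this checks no label.

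Levels in neural-like cells are given in CPM, summed by plate. *Lhx6* measured 78.6, 28.2 and 30.6 on plates 1 to 3 and 0, 1.09 and 0 on plates 4 to 6, or 68 transcripts against 1. *Dlx1* measured 231, 209 and 163 against 0, 85.3 and 3.73. *Dlx2* measured 103, 133 and 71.3 against 0, 44.8 and 11.2. For these 3 genes every knockout plate lay below every wild-type plate, and plate 5 was the highest of the knockout plates. For *Lhx6* the filter on low values fixed this order, since 3 wild-type plates and 0 knockout plates were over its minimum, so its separation is a description only. Such an order holds for 5.18% of the genes tested, and the reverse for 5.63% of them and for 0 members. The exact permutation test gave p = 0.1 for *Dlx1* and for *Dlx2*, two-sided, the smallest that 3 plates against 3 allow. Both were over the minimum on 3 wild-type plates and 1 knockout plate. The filter thus leaned towards this order, and their separation is a description too. On plate 4 only 5 of the 61 neural-like cells lay in clusters 6, 7 and 8. In clusters 15 and 17 *Dlx1* was found in 1 of 11 and 0 of 6 wild-type cells, and *Dlx2* in 0 of both. The part of cell composition in the 0 of plate 4 was not tested.

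The GABA genes overlapped between genotypes. *Gad1* measured 49.3, 94.5 and 40.8 on the wild-type plates and 8.43, 50.3 and 67.1 on the knockout plates. *Gad2* measured 114, 145 and 61.1 against 5.06, 73.2 and 70.8, and *Slc32a1* measured 18.5, 34.2 and 0 against 0, 24.0 and 18.6. Plate 4 was the lowest of all plates for *Gad1* and *Gad2*. *Dlx5* had 32 transcripts against 6 and *Sst* 21 against 27, too few to be tested, and the *Sst* transcripts came from plate 1 in wild type and plates 5 and 6 in knockout.

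**Figure D5:**
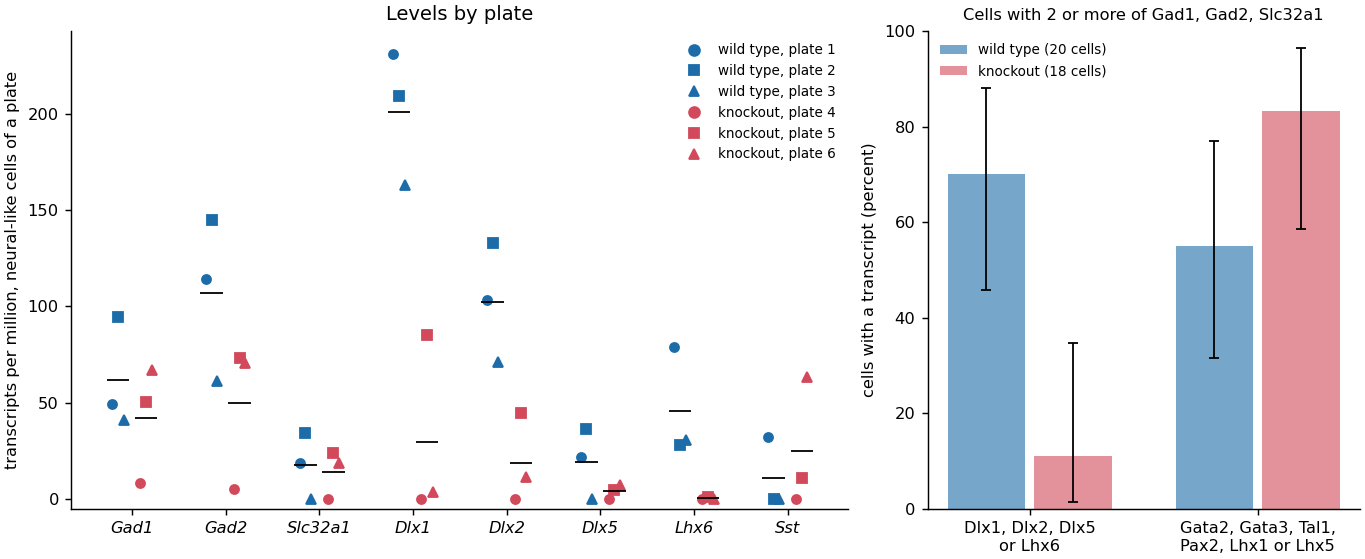
Left, CPM of each gene in neural-like cells of each plate, with bars at the mean of 3 plates. Right, among cells with at least 2 of *Gad1*, *Gad2* and *Slc32a1*, the percent with a DLX gene or *Lhx6* and the percent with a factor of caudal GABAergic neurons, with exact 95% intervals. *Lhx6* reaches 1.09 at most on a knockout plate, and the first share is 70% in wild type and 11.1% in knockout.

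In edgeR's quasi-likelihood test over 7619 genes 0 genes were called between knockout and wild type, or 0.0% of them, with 354 at an unadjusted p under 0.05, and 6 members were tested. DESeq2 called 4 genes. *Lhx6* differed by a log2 of -5.93 (SE 0.83, adjusted p = 0.135, edgeR), and over the alternatives tried its adjusted p ran from 1.25e-08 to 0.9996. Plate 1 held 51 of the 68 wild-type transcripts. *Dlx1* differed by -2.53 (SE 0.96), *Dlx2* by -2.28 (SE 0.81), *Gad2* by -1.18 (SE 0.68), *Gad1* by -0.68 (SE 0.61) and *Slc32a1* by -0.55 (SE 0.89), each with an adjusted p of 0.907 or more in edgeR. *Lhx6* passed the filter only through the wild-type plates, with 0 knockout plates over the minimum of 18.34 CPM, so it had to be lower in knockout. The same holds for its calls below that used the filter. A gene had to reach that minimum on 3 plates. *Dlx1*, *Dlx2*, *Gad1* and *Gad2* reached it on 3 wild-type plates, but *Dlx1* and *Dlx2* on 1 knockout plate, plate 5, and *Gad1* and *Gad2* on 2. *Slc32a1* reached it on 2 plates of each genotype. None of the 6 would have been tested through the knockout plates alone, so the members tested lean towards higher values in wild type. With 1 plate left out, *Dlx1* ranged from -1.81 to -7.13 and *Dlx2* from -1.62 to -4.74, and *Gad2* from -0.65 to -1.81, in each case from leaving out plate 4 to leaving out plate 5, both knockout. *Gad1* ranged from -0.19 without plate 4 to -1.004 without plate 6, and *Lhx6* from -5.20 without plate 1 to -7.42 without plate 5. For the lists the median was -0.30 over 6 ventral progenitor genes, 0.31 over 6 genes of medial eminence interneurons, -0.05 over 8 genes of the lateral and caudal eminences, 0.31 over 3 factors of caudal GABAergic neurons, -0.29 over 7 excitatory, -0.44 over 8 pan-neuronal and 1.22 over 8 progenitor genes, against 0.03 over all genes tested, with 0 genes called in each. DESeq2 called *Lhx6* (adjusted p = 0.00903, DESeq2). With no filter on low counts edgeR called 63 genes higher and 18 lower. The lower ones included *Lhx6*, *Dlx1* and *Dlx2* (-2.23 for *Dlx2*, adjusted p = 0.000117, edgeR). With the neural-like cells limited to clusters 6, 7 and 8, an alternative added after the data were seen, edgeR called *Lhx6* (-5.67, adjusted p = 0.0193, edgeR). Without plate 5 it called *Dlx1* (-7.13, adjusted p = 0.0359, edgeR), which then passed the filter through the wild-type plates alone and had to be lower, and over the alternatives tried the adjusted p of *Dlx1* ran from 8.69e-08 to 0.9999.

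At least 2 members were found in 25 of 211 knockout neural-like cells, against 35 of 158 in wild type. All of them lay in clusters 6, 7 and 8, where the numbers were 25 of 154 (16.2%, 10.8 to 23.0) and 35 of 141 (24.8%, 17.9 to 32.8), with overlapping intervals. In knockout cells *Gad1* and *Gad2* shared 16 cells (3.13 expected), and both shared 11 with *Slc32a1*. *Dlx1* shared 6 cells with *Dlx2* (0.67 expected) but 1 each with *Gad1* (0.83 expected), *Gad2* (1.12 expected) and *Slc32a1* (0.59 expected). As in wild type, the excitatory list was found in few cells with at least 2 members, 0 of 25 against 64 of the other 186. For the progenitor list the numbers were 12 of 25 and 150 of 186.

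What the cells with GABA genes held besides was looked at after these values were seen. At least 2 of *Gad1*, *Gad2* and *Slc32a1* were found in 20 wild-type neural-like cells (10, 9 and 1 by plate) and 18 knockout ones (1, 10 and 7 by plate). Of the wild-type cells 14 (70%, 45.7 to 88.1) held *Dlx1*, *Dlx2*, *Dlx5* or *Lhx6*, and of the knockout cells 2 (11.1%, 1.38 to 34.7). A factor of caudal GABAergic neurons (*Gata2*, *Gata3*, *Tal1*, *Pax2*, *Lhx1* or *Lhx5*) was found in 11 of the 20 (55%, 31.5 to 76.9) and 15 of the 18 (83.3%, 58.6 to 96.4), and 6 wild-type and 0 knockout cells held both kinds. On thinned cells the numbers were 7 of 10 and 0 of 9 for the first kind and 3 of 10 and 8 of 9 for the second. *Gata3* was found in 6 of 20 and 13 of 18 cells and *Tal1* in 5 and 12. These cells come mostly from 2 plates a genotype, and no test was made on them. Over all neural-like cells *Gata3* measured 29.3, 30.2 and 204 CPM on the wild-type plates against 1.69, 120 and 160 on the knockout plates. *Tal1* measured 15.4, 10.1 and 10.2 against 1.69, 53.6 and 18.6, and both genes overlapped between genotypes.

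Cluster 8, which held most cells with *Gad1* in both genotypes, was also picked after its values were seen. Among its 43 wild-type and 45 knockout cells *Gad1* was found in 20 and 19, *Gad2* in 21 and 20 and *Slc32a1* in 15 and 13. *Dlx1* was found in 16 and 1, *Dlx2* in 10 and 3, *Lhx6* in 6 and 1 and *Dlx5* in 7 and 3, while *Sst* was found in 2 and 4. In cluster 6, with the progenitor genes *Pax6* and *Sox2* among its 10 leading genes, *Dlx1* was found in 17 of 51 wild-type and 5 of 61 knockout cells and *Dlx2* in 12 and 9.

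In the 211 knockout neural-like cells *Tal1* was most like the summed members (r = 0.63), followed by *Gata3* (0.60), *Lhx1* (0.59), *Pnoc* (0.58), which encodes a neuropeptide precursor, and *Nrxn3* (0.57). On thinned cells these were 0.45, 0.51, 0.44, 0.23 and 0.23. Of these 5, *Lhx1* (0.31) and *Nrxn3* (0.64) were found in the minimum of 10 cells in the wild-type neural gate too. Of the genes named for the wild-type gate, *Nrxn3* (0.57), *Adarb2* (0.28), *Dclk2* (0.12) and *Sox2ot* (-0.01) were found in that many knockout cells, and *Nrxn3* was the 1 gene among the first 10 of both sets. *Nfib*, *Nfia* and *Nfix* were the lowest in knockout (-0.43, -0.42 and -0.40) and among the 5 lowest in wild type.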

How the data were processed

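Sorted neural, vascular and microglial populations of E14.5 mouse brain were profiled as 12 bulk libraries and as single cells of 11 wild-type and 12 *Mof* knockout mCEL-Seq2 libraries. The authors deposited 1 bulk table in which read counts were divided by size factors, a signal per gene and library. The submitters' processing notes name mm10, BWA 0.6.2-r126, STAR, featureCounts and DESeq2 without their roles. Dividing by the value of 1 read (0.264 to 1.77 normalized counts) gave whole reads within 0.01 for 100% of 124078 values of at most 100 reads, and 17638358 to 98414914 reads on genes per library. The deposited single-cell values are estimated transcript counts per well, not whole numbers, and were rounded for count tests. Wild-type gates came from the deposited well table. Gene symbols came from GENCODE vM21 (99.6% of genes matched). All columns of per-sample values were used.

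Bulk values were tested with limma 3.58.1 on log2(normalized count + 1) for genes with a mean of at least 10. Cells over 1500 transcripts were kept (median 7038), summed by plate and gate or class, and tested with edgeR 4.0.16, with DESeq2 1.42.0 as an alternative (R 4.3.3). Classes came from Leiden clusters (igraph, 2000 variable genes, 30 components, 15 neighbours, resolution 1) made without the members, and no doublet caller was run. The same well barcodes serve every library, so a shared barcode marks no shared cell. Thinned values use 1500 transcripts per cell. Intervals are exact Clopper-Pearson or Poisson, at 95%. Programs were tested on simulated data, where the fit between genotypes recovered 1.49% of 2-fold, 61.2% of 4-fold and 100% of 16-fold changes. The spread of the simulated counts was set and not estimated from the plates. Named genes were the 8 members, at most 4 genes of each list with the highest neural mean, every gene of lists of at most 5, and the 10 most and 5 least alike genes. Alternatives were another pseudocount, other filters, normalizations and tools, a replicate block, and leaving out each library or plate. The members and lists were chosen with earlier results of these data known. Whether libraries of 1 number come from 1 animal is not stated in the labels, and their deviations from the group means correlated by -0.05 to 0.08. Some genes that the rule names are not reported here.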

Additional observations from a re-analysis of the deposited data

How the results depend on the processing

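All 8 members were called in bulk under the other pseudocount, no minimum, quantile normalization, edgeR on recovered reads and each library left out. DESeq2 gave an adjusted p for 4 members only and called those 4. The count of genes higher in neural libraries was 6510, and 5311 to 6736 with 1 library left out, 6164 by edgeR and 5801 by DESeq2. With a replicate block for the number in the library names it was 6417 and no member's call changed, while same-numbered libraries correlated by -0.05 to 0.08. In wild-type cells the count of higher genes was 2084, and with a block for the plate 2203. It was 1367 by DESeq2, 352 in thinned cells and 759 to 2242 with 1 plate left out, being lowest without plate 1 (759) or plate 2 (779). Members called there were 5, but 8 with no filter, 1 in thinned cells and 4 to 7 with 1 plate left out, in each case all members that passed the filter. Without plate 1 or plate 2 *Lhx6* fell below it. Between genotypes 0 genes were called, against 4 by DESeq2, 81 with no filter, 3 in the clusters of neural gate cells (added after the data were seen) and 0 to 2 with 1 plate left out. Members called there were 0, against 1 by DESeq2, 3 with no filter (*Dlx1*, *Dlx2* and *Lhx6*), 1 in those clusters and 0 to 1 with 1 plate left out. The differences between pairs of populations were not refitted with a library left out. *Slc32a1* ran from -0.741 to 0.0785 with 1 plate left out, and was above 0 without plate 2 (0.0785) and without plate 4 (0.0454). No paired fit was made between genotypes, whose plates share no number. The share of neural gate cells with any member was 44.7%, against 26.8% in thinned cells and 38.8% to 47.7% with 1 plate left out, and observed over expected pairs were 2.71 (2.50 to 3.57 over the alternatives). Of 239 alternatives for single members 231 kept direction and call, 6 newly passed the threshold and 2 reversed. The cause of these changes was not tested. Depth limits the shares of cells with a transcript, which fell in thinned cells.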

Other observations

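The neighbouring gene *Dlx6*, picked after its values were seen, measured 517, 607 and 602 in neural bulk libraries and at most 72.3 in the other 9. In single cells it was found in 17 of 123 neural gate cells (13.8%), but also in 26 mural (12.4%), 34 endothelial (15.1%) and 9 microglia gate cells (7.03%), and its difference between gates did not pass (log2 0.62, adjusted p = 0.309, edgeR).

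On knockout plate 6, *Lhx6* was found in 12 of 266 endothelial-like cells (4.51%, exact 95% interval 2.35 to 7.75), of which 3 held another member. In wild type it was found in 3 of 200 endothelial-like cells (1.5%, 0.310 to 4.32). On knockout plate 4, *Gad2* was found in 22 of 272 mural-like cells (8.09%), and in wild type in 9 of 207 (4.35%, 2.01 to 8.09). These differences were not tested, and intervals cover counting error only.

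Of the 23 kept wild-type wells outside the 4 gates, 15 clustered as neural-like and 8 as mural-like. Among them 3 held a member and 1 held at least 2.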
